A study of Mus musculus with 4 samples.

Results

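The collagen chains are the 43 protein-coding genes of the deposited count table whose symbol has the form Col, a number, a and a number, out of 27293 genes in all, 17072 of them protein-coding. They were sorted into 11 fibrillar chains (types I, II, III, V, XI, XXIV and XXVII), 6 basement membrane chains (type IV) and 26 other chains. RNA was taken from telencephalic tissue of C57BL/6 mouse embryos at embryonic day 13 (E13) and sequenced in 4 libraries. WT 1 and WT 2 are labelled wild type. cKO 1 and cKO 2 are labelled STINGf/f;Nestin-Cre, a genotype in which Cre recombinase under the Nestin promoter is meant to delete the STING gene in neural progenitors and the cells derived from them, and not in every cell of the tissue. The title of WT 2 carries the letters nes where that of WT 1 carries wt, and what they stand for is not given. The labels do not say whether the libraries came from separate embryos or from pools. Genes of chromosome Y, given below, had 2735 counts in WT 1 and 0 in WT 2, so these libraries were not made from the same RNA. How much of the spread between libraries of either group is technical is not known.

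Every collagen is built from 3 chains wound around each other, and each chain repeats a unit of glycine followed by any pair of amino acids, often written Gly-X-Y. Fibrillar collagens assemble into the fibres of connective tissue, bone and cartilage, type IV forms the sheet-like network of basement membranes, and the remaining types coat fibrils, build beaded filaments or span the cell membrane. In the embryonic brain, collagens are known chiefly from the meninges, the vessels and the basement membrane under the pial surface, on which the end-feet of radial glia rest, and type III collagen of the meninges is the ligand of the receptor Adgrg1 (GPR56) on cortical progenitors.

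The repeat separates the first 2 classes in sequence, and a stretch of coding sequence of one chain of each is shown because it makes the difference visible. In both, the codons of the repeating glycine are in capitals, the reading is 5′ to 3′ on the coding strand, and each stretch covers 40 codons (120 bases) in the GENCODE M21 transcript (Col3a1 codons 224 to 263, Col4a1 codons 148 to 187).
Col3a1: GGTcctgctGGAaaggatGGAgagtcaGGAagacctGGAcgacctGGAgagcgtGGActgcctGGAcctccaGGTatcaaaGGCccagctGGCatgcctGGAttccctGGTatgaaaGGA
Col4a1: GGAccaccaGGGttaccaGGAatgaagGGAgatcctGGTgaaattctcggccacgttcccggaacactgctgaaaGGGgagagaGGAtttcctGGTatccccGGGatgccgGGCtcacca
In Col3a1 the repeat ran through the stretch, with 14 glycine codons in register, whereas in Col4a1 it broke off for 10 codons and then resumed. Counting runs of at least 5 triplets, the longest run in a fibrillar chain had 216 to 344 triplets, with a median of 338, and each fibrillar chain had 2 or 3 runs. The longest run of a type IV chain had 39 to 66 triplets, and these chains had 22 to 27 runs each. Among the other chains the longest run spanned 23 to 113 triplets, so none reached the length of a fibrillar chain.

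Total counts on genes lay between 17209654 and 18533391 per library, at which 3 counts, taken as the most that a gene with 0 counts could have had, equal 0.162 to 0.174 CPM (counts scaled to a library total of 1000000). This limit covers counting error only. The targeted gene, listed under its older symbol Tmem173, had 20 counts in WT 1 against 19 in WT 2, and 18 and 22 in cKO 1 and cKO 2, so the counts did not separate the labels, and the groups are named below as the libraries labelled WT and cKO. On chromosome Y, Uty, Kdm5d, Eif2s3y and Ddx3y together had 0 counts in WT 2 and 1848 to 3002 in the other libraries. Markers of cortical progenitors, such as Vim and Nes, summed to 2205 to 2368 CPM in every library, and markers of cortical neurons, such as Tubb3 and Dcx, to 4234 to 5306 CPM. In tissue RNA of this kind, fewer cells of a type and less RNA per cell cannot be told apart.

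The collagen chains together took up 1336 CPM in WT 1 against 714 in WT 2, and 764 and 762 in cKO 1 and cKO 2. WT 1 stood above the other libraries, which lay close to each other. All 43 chains had counts in at least 1 library, and 33 to 37 chains reached 10 counts in a given library. The most abundant chains were Col4a1, Col4a2 and Col2a1, which made up 46.1% of all collagen counts in WT 1 and 51.6% to 57.6% in the other 3 libraries.

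**Figure D1:**
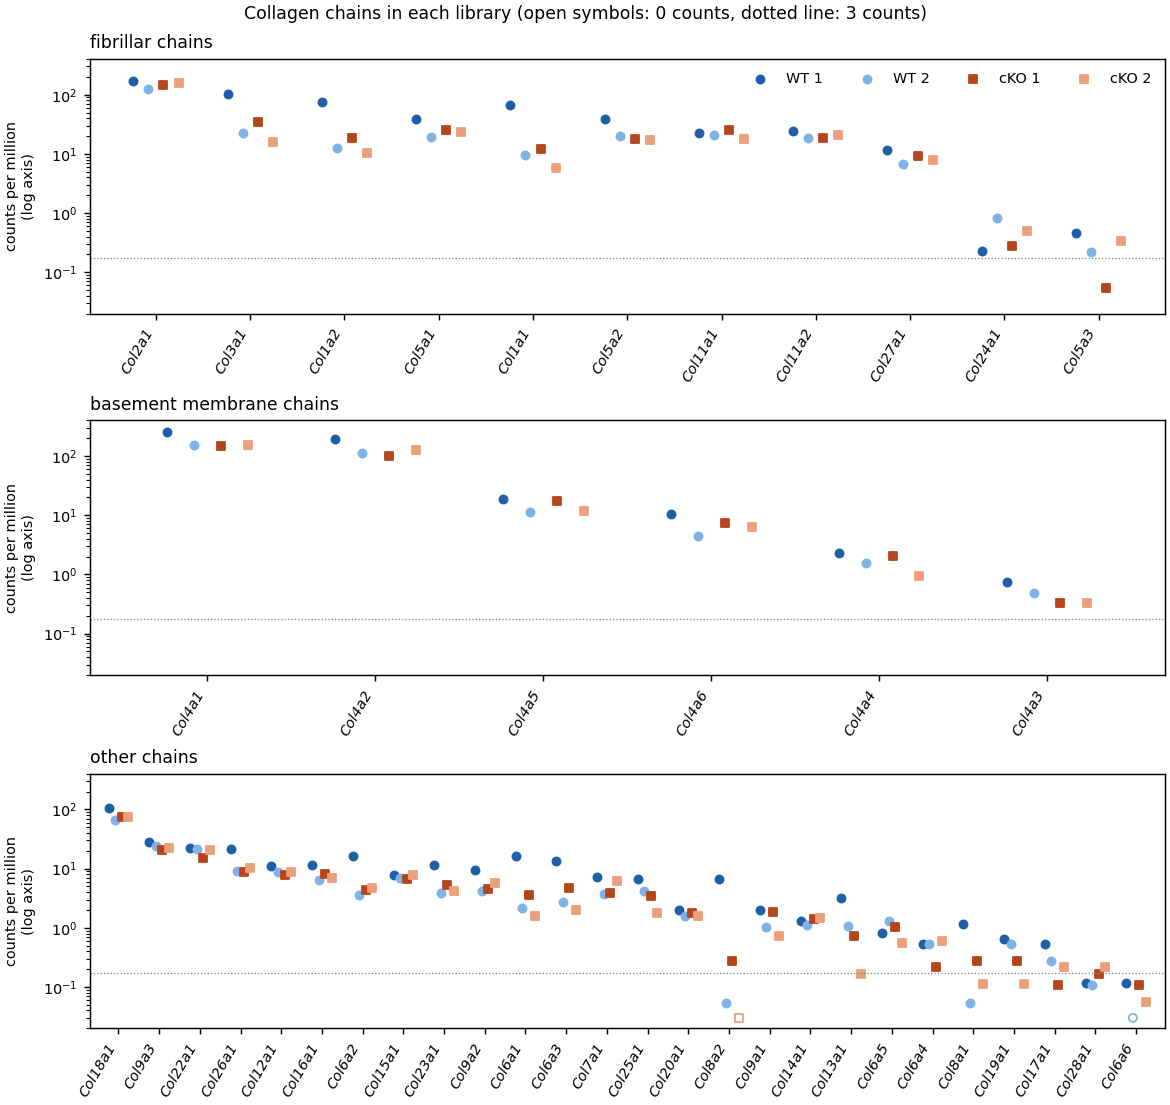
Level of each of the 43 collagen chains in CPM (vertical log axis) in the 4 libraries, by class, with chains ordered by mean level. WT 1 (dark circles) is the highest library for 36 of the 43 chains, and the distance to the others is large for Col1a1, Col1a2, Col3a1, Col6a1 and Col8a2 and small for Col2a1, Col11a1, Col15a1 and Col22a1.

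Of the fibrillar chains tested, those of types I and III differed most between WT 1 and WT 2. Col1a1, the major chain of type I collagen, the main fibre of skin, bone and meninges, had 67.4 CPM in WT 1 against 9.66 in WT 2, and 12.1 and 5.86 in cKO 1 and cKO 2. Its partner Col1a2 had 75.7, 12.4, 18.7 and 10.2 CPM in the same order. Col3a1, the single chain of type III collagen, had 101 CPM in WT 1 against 22.7 in WT 2, and 34.4 and 15.6 in cKO 1 and cKO 2. In all 3 chains WT 2 lay between the cKO libraries, so the groups overlapped, while WT 1 exceeded WT 2 by 6.98-fold for Col1a1, 6.10-fold for Col1a2 and 4.45-fold for Col3a1. The level averaged 38.5 ± 40.8 CPM in WT and 8.99 ± 4.43 CPM in cKO for Col1a1, and 61.9 ± 55.4 and 25.0 ± 13.3 CPM for Col3a1 (SD, n = 2 each).

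The study's thresholds for a changed gene are a difference of 2-fold or more and an unadjusted p no higher than 0.05. With all 4 libraries, Col1a1 (ENSMUSG00000001506, chromosome 11, 94936224 to 94953042, GRCm38) was lower in cKO by a log2 fold change of -2.08 (standard error 0.75, unadjusted p = 0.0246 in edgeR's quasi-likelihood test). Col1a2 (ENSMUSG00000029661, chromosome 6, 4504814 to 4541544) had a log2 fold change of -1.59 (standard error 0.69, unadjusted p = 0.0491 in edgeR). Col3a1 (ENSMUSG00000026043, chromosome 1, 45311538 to 45349706) had -1.29 (standard error 0.61) and an unadjusted p of 0.0681 in edgeR, short of the threshold. Without WT 1 the log2 fold changes were -0.11 for Col1a1, 0.21 for Col1a2 and 0.13 for Col3a1, and with DESeq2 on all 4 libraries neither type I chain had an unadjusted p under 0.05 (0.0982 and 0.176). Without cKO 2 the log2 fold changes of Col1a1 and Col1a2 were -1.65 and -1.21 and neither passed.

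Types II and XI, the fibrillar collagens best known from cartilage, had flatter values. Col2a1 (ENSMUSG00000022483, chromosome 15, 97975602 to 98004695), the most abundant fibrillar chain here, had 170 CPM in WT 1 against 125 in WT 2, and 146 and 158 in cKO 1 and cKO 2, with a log2 fold change of 0.05 (standard error 0.18, unadjusted p = 0.770 in edgeR). Col11a1 had 22.5, 20.9, 25.2 and 17.7 CPM in WT 1, WT 2, cKO 1 and cKO 2, and Col11a2 had 24.1, 18.5, 18.5 and 20.6 CPM. For all 3 chains the groups overlapped and the libraries lay within 1.42-fold of each other. Cartilage markers were nearly absent from the same libraries. The 7 of them in the table summed to 1.04 to 2.38 CPM per library, Hapln1 led them with 6 to 24 counts, Ucma had 1 to 10 counts, Acan, which encodes the main cartilage proteoglycan, had 1 to 5 counts, Matn1 had 0 counts in all libraries but WT 2, where it had 1, and Comp had 0 counts in WT 1 and cKO 1. Matn3 and Snorc, also on the marker list, were not analysed here.

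Type V chains, which join type I fibrils and help set their diameter, lay between these patterns. Col5a1 had 38.6 CPM in WT 1 against 19.0 in WT 2, and 25.3 and 23.8 in cKO 1 and cKO 2. Col5a2 had 38.6, 20.4, 17.7 and 17.2 CPM and was the only fibrillar chain whose cKO libraries were both under the lower WT library, at a log2 fold change of -0.74, less than the 2-fold threshold. Col27a1, a fibrillar chain with a shortened triple helix, had 6.64 to 11.7 CPM. Col24a1 (4 to 15 counts) and Col5a3 (1 to 8 counts) were too low to be tested.

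The basement membrane chains were led by Col4a1 and Col4a2, which form the heterotrimer found in nearly all basement membranes. Col4a1 (ENSMUSG00000031502, chromosome 8, 11198423 to 11312826, minus strand) had 254 CPM in WT 1 against 151 in WT 2, and 147 and 154 in cKO 1 and cKO 2. Col4a2 (ENSMUSG00000031503, chromosome 8, 11312805 to 11449287, plus strand) had 192, 113, 101 and 128 CPM. WT 1 was again the highest library, by 1.68-fold and 1.70-fold over WT 2. The log2 fold change was -0.41 for both chains (standard errors 0.23 and 0.25, unadjusted p = 0.109 and 0.140 in edgeR), and -0.01 and 0.01 without WT 1. Neither chain passed the threshold.

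The other type IV chains were scarcer. Col4a5 and Col4a6, which occur together in some basement membranes, had 11.2 to 18.6 CPM and 4.53 to 10.4 CPM, and Col4a5 had a log2 fold change of -0.03 (standard error 0.30, unadjusted p = 0.932 in edgeR). Col4a3 and Col4a4, known from the basement membranes of kidney, lung, ear and eye, had 6 to 13 counts and 17 to 40 counts per library. Col4a3 was too low to be tested, and Col4a4 did not pass. The 6 genes lie in 3 head-to-head pairs: in the deposited positions Col4a1 and Col4a2 overlap by 22 bases at their starts, Col4a3 and Col4a4 are 71 bases apart, and Col4a5 and Col4a6 are 1308 bases apart. Whether the counting used strand is not given in the sources used here, so reads in the overlap of Col4a1 and Col4a2 cannot be assigned with certainty.

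Among the other chains, the beaded filament collagen type VI was, like types I and III, highest in WT 1. Col6a1 had 16.3 CPM in WT 1 against 2.16 in WT 2, and 3.62 and 1.60 in cKO 1 and cKO 2. Col6a2 had 16.6, 3.62, 4.33 and 4.70 CPM, and Col6a3, the largest chain of the heterotrimer, had 13.7, 2.75, 4.77 and 1.99 CPM. These 3 chains form the classical type VI trimer, and WT 1 exceeded WT 2 by 7.57-fold, 4.60-fold and 4.98-fold. Their log2 fold changes were -1.80, -1.14 and -1.27 and none passed the threshold in edgeR. Without WT 1 they were 0.27, 0.32 and 0.29. The alternative chains Col6a4, Col6a5 and Col6a6, a cluster on chromosome 9, had at most 24 counts in any library, and WT 1 was not the highest library for Col6a4 and Col6a5.

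Type VIII, the short-chain network collagen known from the cornea and vessel walls, was counted mostly in WT 1. Col8a2 had 113 counts in WT 1 against 1 in WT 2, and 5 and 0 in cKO 1 and cKO 2, and Col8a1 had 20, 1, 5 and 2 counts. Neither gene entered the test, since a sufficient count was reached in 1 library alone, and no group difference can be drawn from either.

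The fibril-associated chains were flatter. Col9a3, a chain of type IX collagen, which decorates type II fibrils, had 28.5 CPM in WT 1 against 23.7 in WT 2, and 20.5 and 22.4 in cKO 1 and cKO 2 (log2 fold change -0.27, standard error 0.19, unadjusted p = 0.190 in edgeR). Col22a1, known from tissue junctions, had 21.9, 21.3, 15.2 and 20.8 CPM (log2 fold change -0.25, standard error 0.22, unadjusted p = 0.288 in edgeR). In both chains the cKO libraries lay below the WT libraries, by less than 2-fold. Col12a1 (7.95 to 11.0 CPM) and Col16a1 (6.42 to 11.4 CPM), both fibril-associated, and Col9a2 (4.26 to 9.47 CPM) did not pass. Col9a1, Col14a1 and Col20a1 each stayed at or under 2.03 CPM, and Col19a1 had 2 to 11 counts.

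The multiplexins Col18a1 and Col15a1, proteoglycan collagens of basement membrane zones, differed in level and in spread. Col18a1 (ENSMUSG00000001435, chromosome 10, 77052178 to 77166548), the most abundant chain outside the fibrillar and type IV classes, had 106 CPM in WT 1 against 66.2 in WT 2, and 75.1 and 75.5 in cKO 1 and cKO 2 (log2 fold change -0.18, standard error 0.22, unadjusted p = 0.431 in edgeR). Col15a1 had 7.67, 7.07, 6.69 and 7.74 CPM, a narrow range in which the groups overlapped.

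The transmembrane collagens held the remaining chains that passed the test. Col13a1 (ENSMUSG00000058806, chromosome 10, 61838236 to 61979108), a cell surface collagen found at neuromuscular junctions, had 55 counts in WT 1 against 20 in WT 2, and 13 and 3 in cKO 1 and cKO 2. The fitted log2 difference came to -2.25 (standard error 0.75, unadjusted p = 0.0174 in edgeR). Col25a1 (ENSMUSG00000058897, chromosome 3, 130131501 to 130599877), a neuronal membrane collagen known for binding amyloid, had 113, 77, 64 and 32 counts in the same order and a log2 fold change of -1.01 (standard error 0.42, unadjusted p = 0.0429 in edgeR). In both genes the groups were apart, with WT above cKO. Without WT 1 their log2 fold changes kept the sign, at -1.29 and -0.66, with unadjusted p = 0.118 and 0.201 in edgeR, and without cKO 2 they were -1.55 and -0.59, with unadjusted p = 0.0884 and 0.199 in edgeR. Col23a1 had 11.6 CPM in WT 1 and 3.83 to 5.32 CPM elsewhere, and Col17a1, a chain of epithelial hemidesmosomes, had 2 to 9 counts. Of the rest, Col26a1 had 21.2 CPM in WT 1 and 8.77 to 10.3 CPM elsewhere, Col7a1, the anchoring fibril collagen of skin, had 3.78 to 7.21 CPM, and Col28a1 had 2 to 4 counts.

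Over the whole set, 33 of the 43 chains had enough counts to be tested and 10 did not. Col1a1, Col1a2, Col13a1 and Col25a1 were lower in cKO at the study's thresholds, against 0.669% of the 16145 genes tested. None of the chains was higher at these thresholds, against 0.142% of the genes. Of the 33 chains 5 had an unadjusted p of 0.05 or less, the fifth being Col5a2, as had 199 genes in all. No chain and no other gene had an adjusted p under 0.05 (0% of the genes tested) in edgeR, where the lowest adjusted p was 0.9999, or in DESeq2. The count of 4 turned on single libraries, being 0 without WT 1, 0 without cKO 2 and 11 without WT 2. The share of all genes lower at the thresholds moved as well, to 0.297% without WT 1, 0.582% without cKO 2 and 2.07% without WT 2. Without cKO 1 the count stayed at 4 chains, 3 of them shared with the fit of all libraries, while the share of all genes was 2.9%. DESeq2 on all 4 libraries also called 4 chains, against 0.359% of all genes, of which Col13a1 and Col25a1 were shared and Col6a2 and Col6a3 were not.

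By direction, 31 of the 33 chains had a log2 fold change below 0, against 52.1% of all genes tested. Without WT 1 the number was 10 of 33, against 49.8% of all genes. The median log2 fold change of the chains tested was -0.27 with all libraries and 0.13 without WT 1, beside medians of -0.01 and 0.00 over all genes. By class the medians were -0.22 for fibrillar, -0.35 for basement membrane and -0.27 for other chains. The cKO libraries were both under the lower WT library for 6 of the 33 chains, against 11.2% of the genes tested. WT 1 was the highest of the 4 libraries for 29 of the 33 chains, against 27.3% of the genes tested.

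**Figure D2:**
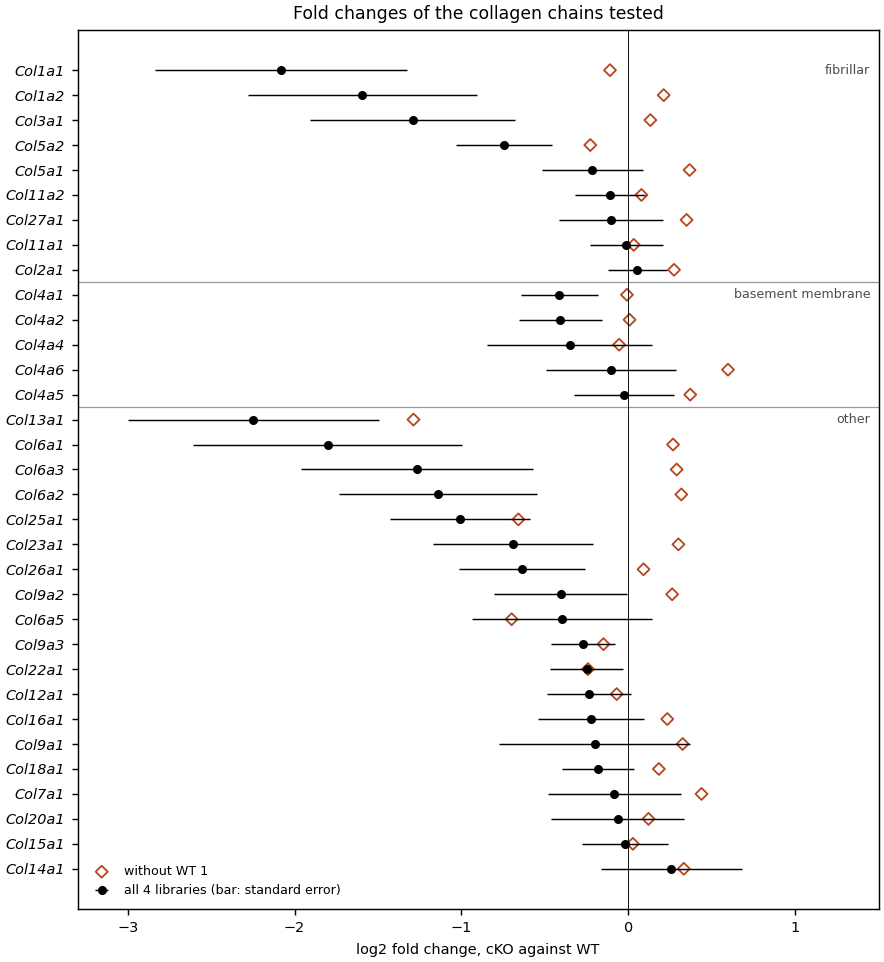
Log2 fold change of cKO against WT (horizontal axis) for the 33 collagen chains tested, by class, from all 4 libraries (filled circles, bars of 1 standard error) and without WT 1 (open diamonds). With all libraries 31 chains lie below 0, and without WT 1 10 chains do, Col13a1 being the lowest in both.

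The spread within a label was then described between single libraries, on the log2(CPM + 1) scale and over genes that reached 10 counts in either library compared. WT 1 was at least 2-fold above WT 2 for 12 of 39 chains, against 1.68% of the genes, and at least 2-fold below it for no chain, against 0.0833%. The 12 were Col1a1, Col1a2, Col3a1, Col4a6, Col6a1, Col6a2, Col6a3, Col8a1, Col8a2, Col13a1, Col23a1 and Col26a1. Between the cKO libraries, cKO 1 was at least 2-fold above cKO 2 for 1 of 34 chains, Col3a1, against 2.31% of the genes, and below it for none, against 0.339%. On this scale each of the 12 differed more between the libraries labelled WT than between those labelled cKO. They were picked by the difference between WT 1 and WT 2, so this comparison carries no weight. As a ratio of CPM, Col13a1 differed more between cKO 1 and cKO 2 (4.30-fold, from 13 and 3 counts) than between WT 1 and WT 2 (2.96-fold). These contrasts pit 1 library against 1 and carry no test.

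**Figure D3:**
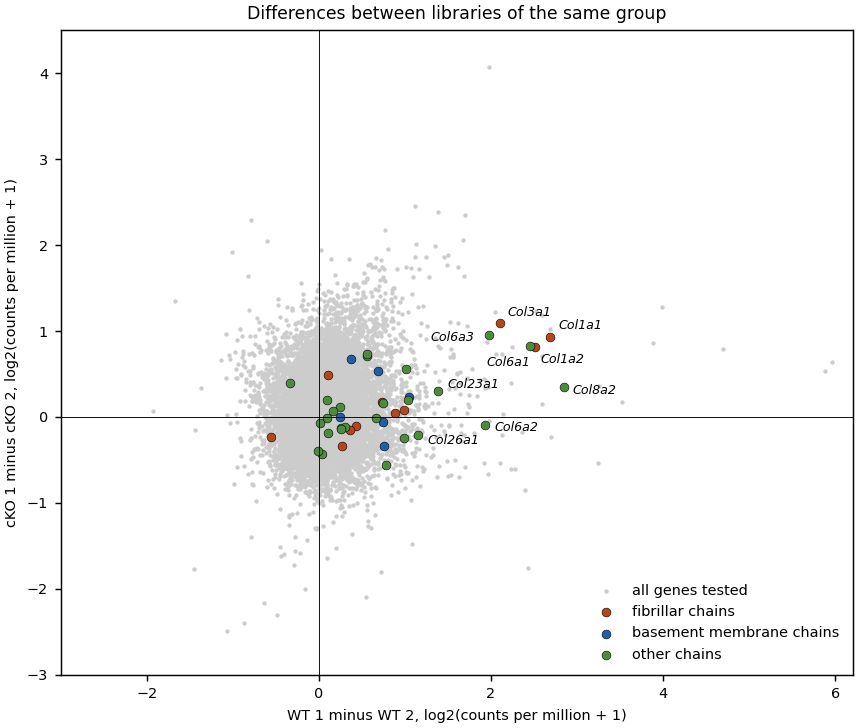
Difference between WT 1 and WT 2 (horizontal axis) and between cKO 1 and cKO 2 (vertical axis) on the log2(CPM + 1) scale, for the collagen chains by class and for all genes tested (grey). Col1a1, Col1a2, Col3a1, Col6a1, Col6a2, Col6a3 and Col8a2 lie far to the right, with WT 1 above WT 2, and less far from 0 on the cKO axis.

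In summed level, the fibrillar chains had 550.2 CPM in WT 1 against 257 in WT 2, and 307 and 277 in cKO 1 and cKO 2. The basement membrane chains had 478, 282, 275 and 300.4 CPM, and the other chains 308, 175, 181 and 185 CPM. In each class WT 1 was the highest, and the cKO libraries lay close to WT 2. The log2 ratio of cKO to WT was -0.46, -0.40 and -0.40 for the 3 classes, and 0.19, 0.03 and 0.06 without WT 1. These 3 ratios lay close together, while single chains were spread more widely. The closeness depended on which chains were summed. Leaving out the most abundant chain, the log2 ratio was -0.87 for fibrillar (Col2a1), -0.37 for basement membrane (Col4a1) and -0.53 for other chains (Col18a1). With Col7a1, Col15a1 and Col18a1 counted as basement membrane chains, that class had -0.35 and the other chains -0.58. Types I, III and VI (Col1a1, Col1a2, Col3a1 and Col6a1 to Col6a3), grouped after their values were seen, summed to 291 CPM in WT 1 against 53.3 in WT 2, and 78.0 and 39.9 in cKO 1 and cKO 2. Types II, IX and XI, grouped likewise, summed to 256, 194, 217 and 225 CPM.

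Markers of some other cell types moved with the same library. The 12 markers of meninges and cranial mesenchyme, among them Prrx1 and Crabp2, summed to 112 CPM in WT 1 against 42.5 in WT 2. In cKO 1 and cKO 2 they summed to 53.5 and 40.1 CPM. Of the 12 markers 11 were highest in WT 1, against 27.3% of the genes tested. Of these, Twist2 had 3 counts in WT 1 and 0 in the other libraries. The 7 markers of choroid plexus summed to 56.0, 10.2, 7.02 and 8.40 CPM, all 7 being highest in WT 1. Folr1 had 0 counts in WT 2, and Ttr and Clic6, also on the marker list, were not analysed here. Endothelial markers, led by Kdr and Cdh5, summed to 236, 181, 159 and 159 CPM, and 8 of 10 were highest in WT 1. Mural cell markers, led by Notch3 and Rgs5, summed to 284, 205, 217 and 228 CPM. Of these 7 of 10 were highest in WT 1, but Notch3 was highest in cKO 2, with 128 CPM against 124 in WT 1. Bone markers, led by Alpl and Spp1, summed to 15.5 to 19.8 CPM, of which Alpl had 13.2 to 16.3, and 3 of 6 were highest in WT 1. Of 6 cortical neuron markers 0 were highest in WT 1, and of 8 cortical progenitor markers 2 were. At the study's thresholds all 4 choroid plexus markers tested (Otx2, Aqp1, Kcne2 and Htr2c) were lower in cKO, against 0.669% of the genes tested. So was Acta2, 1 of 9 mural markers tested. In this order the log2 fold changes were -1.33, -2.66, -3.33, -3.44 and -1.69 (standard errors 0.51, 0.89, 1.31, 0.89 and 0.71). Without WT 1 these were -0.31, -0.66, 1.24, -1.66 and -0.26. The study itself names Htr2c and Slc4a5, both on the choroid plexus list, among the genes most lowered in these data. The counts for this list are therefore not independent of that result and carry no weight as support. The part of these cell types in the collagen levels was not tested.

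**Figure D4:**
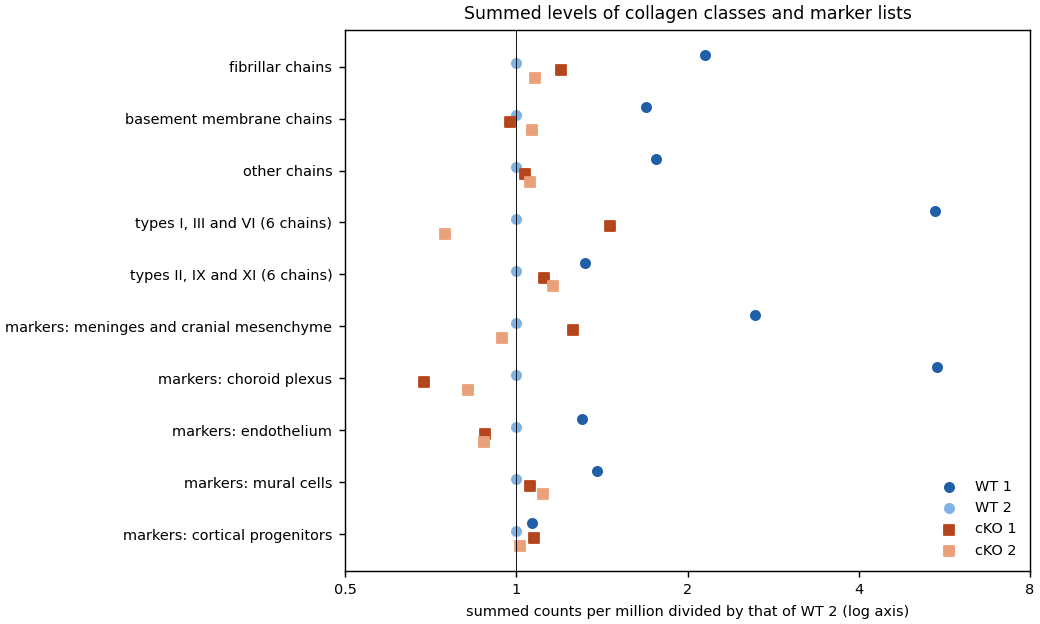
Summed CPM of collagen classes and marker lists in each library, divided by the sum in WT 2 (horizontal log axis). WT 1 (dark circles) stands 5.46-fold above WT 2 for types I, III and VI, 5.49-fold for choroid plexus markers and 2.63-fold for markers of meninges and cranial mesenchyme, but 1.32-fold for types II, IX and XI and 1.07-fold for cortical progenitor markers.

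Chains that share a trimer were compared per length of exon, as counts per kilobase. The length is that of all annotated exons of a gene merged, 6563 bases for Col1a1 and 12426 for Col1a2. The ratio of Col1a1 to Col1a2 was 1.69 in WT 1 against 1.47 in WT 2, and 1.23 and 1.09 in cKO 1 and cKO 2, although Col1a1 itself spanned 11.5-fold between libraries. In raw counts Col1a2 was above Col1a1 in every library, with 1303 against 1160 in WT 1. Which chain stands higher thus depends on the length used. The ratio of Col4a1 to Col4a2 was 1.17, 1.18, 1.30 and 1.07, and that of Col6a1 to Col6a2 was 1.87, 1.13, 1.59 and 0.649. For Col9a1 to Col9a2 it was 0.127, 0.147, 0.247 and 0.0778, so the type IX chains were far from equal in every library. Col4a1 and Col4a2 kept the narrowest ratio of these 4 pairs, within 1.21-fold between libraries. Type I collagen is known as a trimer of Col1a1 and Col1a2 chains in unequal number, type IV likewise, and RNA levels do not give the chains in the protein. Per kilobase, Col4a1 led with 23.6 CPM per kilobase on average, before Col4a2 with 20.2, Col2a1 with 16.2, Col18a1 with 11.5 and Col9a3 with 6.17. This order, too, depends on the merged exon lengths. Single libraries departed from this order at 2 places. In cKO 1, Col2a1 with 15.8 stood above Col4a2 with 15.2, and in WT 1 the fifth place was held by Col3a1 with 10.3 and not by Col9a3 with 7.39.

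The genes that make, process, bind and break down collagen were read from the same fit. Of 58 genes 55 were tested, and 1 was lower and 0 were higher in cKO at the study's thresholds, beside 0.669% and 0.142% of all genes. The gene that passed was Mmp2, a gelatinase that cuts type IV and denatured collagen, with 15.7 CPM in WT 1 against 6.74 in WT 2, and 5.21 and 4.92 in cKO 1 and cKO 2 and a log2 fold change of -1.13 (standard error 0.39, unadjusted p = 0.0205 in edgeR). Without WT 1 it was -0.42. Pcolce2, named after its values were seen, had a log2 fold change of 0.59 with all libraries (standard error 0.49, unadjusted p = 0.258 in edgeR). Without WT 1 its log2 fold change was 1.42. Its level was 2.67 CPM in WT 1 against 1.03 in WT 2, and 2.58 and 2.93 in cKO 1 and cKO 2. The groups overlapped. The median log2 fold change was -0.10 over these 55 genes, beside -0.01 over all genes tested, and 0.04 without WT 1. Of the 55 genes 35 were below 0, against 52.1% of all genes tested. Other enzymes of breakdown and their inhibitors, Timp2 with 114 to 134 CPM and Mmp14 with 108 to 121 CPM, did not pass.

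The 23 genes of collagen synthesis and folding summed to 1181 CPM in WT 1 against 1013 in WT 2, and 1054 and 1129 in cKO 1 and cKO 2, and none passed. P4hb, a subunit of prolyl 4-hydroxylase, which modifies the Y position of the repeat, had 288, 272, 290.1 and 312 CPM. Serpinh1, the collagen chaperone HSP47, had 248, 150.4, 176 and 226 CPM. Of 13 processing and cross-linking genes tested none passed, and Sparc, a collagen-binding protein, had 189 CPM in WT 1 and 108 to 132 CPM in the other libraries, while Bmp1, which removes the C-terminal propeptide of fibrillar chains, had 72.9 to 83.3 CPM.

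The collagen receptors did not pass either, with 10 tested and a median log2 fold change of -0.05. Adgrg1 had 487 CPM in WT 1 against 490.0 in WT 2, and 466 and 553 in cKO 1 and cKO 2 (log2 fold change 0.07, standard error 0.16, unadjusted p = 0.673 in edgeR). Its ligand chain Col3a1 differed 4.45-fold between WT 1 and WT 2, whereas the receptor differed by less than the spread between the cKO libraries. Ddr1, a receptor tyrosine kinase for collagen, had 302 to 370 CPM.

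Promoter sequence was read because the chains of types I, III and VI summed above were all highest in WT 1. Between the cKO libraries they did not all move alike. The ratio of cKO 1 to cKO 2 was 2.26 for Col6a1 and 0.922 for Col6a2. RefSeq windows of 300 bases (GRCm38.p6) matched 34 of the 43 chains, in 37 windows. Col1a1, Col2a1, Col4a3, Col5a2, Col9a3, Col12a1, Col14a1, Col22a1 and Col26a1 were not matched. Textbook promoter motifs were searched on both strands, each on its own, so that matches of different motifs may overlap. CCAAT occurred in 35.1% of the collagen windows, against 37.4% of all 32851 windows. The TATA box, searched as TATAAA, occurred in 10.8% against 13.6%. The GC box, searched as GGGCGG, occurred in 62.2% against 35.7%. The 150 bases before the start are given 5′ to 3′ on the strand of the gene with motif matches in capitals, for chains far apart (Col3a1 and Col6a3) and close (Col11a1) between WT 1 and WT 2: Col3a1 (chr1:45311388-45311537, plus strand), Col6a3 (chr1:90843972-90844121, minus strand) and Col11a1 (chr3:114030390-114030539, plus strand).
Col3a1: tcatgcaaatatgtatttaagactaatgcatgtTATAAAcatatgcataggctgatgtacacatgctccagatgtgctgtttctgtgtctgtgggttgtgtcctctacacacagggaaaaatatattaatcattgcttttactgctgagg
Col6a3: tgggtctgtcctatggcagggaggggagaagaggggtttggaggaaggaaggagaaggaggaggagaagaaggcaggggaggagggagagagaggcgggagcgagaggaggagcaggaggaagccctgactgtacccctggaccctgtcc
Col11a1: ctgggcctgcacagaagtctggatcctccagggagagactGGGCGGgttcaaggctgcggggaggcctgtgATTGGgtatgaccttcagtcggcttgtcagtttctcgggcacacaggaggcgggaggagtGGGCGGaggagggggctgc
Col3a1 and Col6a3, which were 4.45-fold and 4.98-fold higher in WT 1 than in WT 2, shared none of the motifs in these 150 bases, and Col11a1, which was within 1.08-fold between these libraries, held CCAAT (here as ATTGG on the strand shown) and GGGCGG. Other chains did not divide in this way. Col1a2, 6.10-fold higher in WT 1 than in WT 2, held CCAAT, and Col6a2, 4.60-fold higher, held GGGCGG in 1 window and no motif in the other. Col6a1, 7.57-fold higher, held none of the motifs, and neither did Col15a1, 1.09-fold higher. A match of letters describes the sequence and nothing more.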

How the data were processed

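The authors deposited raw counts of reads per gene for 4 libraries in 1 table of 27304 rows, of which 11 blank rows (0.0403%) were left out. The submitters' processing notes name TopHat2 2.0.12, Bowtie2 2.2.3, HTSeq 0.6.0 and build mm9, while the gene positions in the table match GRCm38: a start or end lies within 1 base of GENCODE M21 for all 43 chains and for 97.3% of the 27232 genes it holds. The authors' own fold changes, p-values and normalized values were not used, nor was a table of WT 1 and cKO 1 alone. Groups came from the labels. Counts were divided by library totals (CPM) for levels, and tested over 16145 genes with edgeR 4.0.16 in R 4.3.3 (TMM, filterByExpr, quasi-likelihood test, no covariate, Benjamini-Hochberg adjustment). Exon lengths are those of GENCODE M21, with the exons of all transcripts of a gene merged. With 2 libraries per group the smallest exact two-sided permutation p is 0.333, so none was run. The steps were tested on simulated counts. Fold changes with errors are given for the chains that passed and for the 3 most abundant of each class. Of each gene list the genes that passed and the 2 most abundant are named, with levels or fold changes. Alternatives were DESeq2 1.42.0, its size factors in edgeR, no filter on low counts, a replicate block and leaving out each library. The chains, classes, lists and thresholds were chosen with earlier results of these data known.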

Additional observations from a re-analysis of the deposited data

How the results depend on the processing

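The chains called numbered 3 with DESeq2's size factors and 4 with DESeq2 (against 0.644% and 0.359% of all genes lower in cKO), 9 without a filter on low counts (1.22%), 7 with the replicate block (1.09%), 0 at an unadjusted p of at most 0.01, and 0 to 11 when a library was left out (0.297% to 2.9%). Those with an adjusted p under 0.05 numbered 6 without the filter (65 genes in all), 1 (Col1a1) with the block (5 genes in all), and 0 to 7 when a library was left out (0 to 80 genes in all). Pathway genes called numbered 2 without the filter, 2 with the block and 0 to 5 without a library. The cause was not tested. The replicate numbers are not known to pair the libraries: deviations of same-numbered libraries from their group means correlated at 0.104 over 16145 genes. The log2 ratio of summed levels, leaving out a library, ran from -0.91 to 0.19 (fibrillar), -0.73 to 0.028 (basement membrane) and -0.75 to 0.064 (other). With a pseudocount of 0.1, WT 1 was 2-fold below WT 2 for 1 chain, and cKO 1 was above cKO 2 for 7 and below it for 1. Leaving out 1 library at a time, log2 fold changes turned sign for Col1a2 (-2.36 to 0.21), Col3a1 (-1.99 to 0.13), Col4a2 (-0.72 to 0.0075), Col4a5 (-0.33 to 0.37), Col18a1 (-0.46 to 0.18) and Col2a1 (-0.13 to 0.27), the upper end being the value without WT 1 and the lower end that without WT 2. Col2a1 (-0.0010) and Col4a5 (0.23) also turned without cKO 2. A group cut to 1 library has its spread taken from the other group. Of the values recomputed for whole comparisons 58 stayed within the limit set for them and 19 did not. The limit allowed a change of sign, so the 58 are no measure of stability. The median log2 fold change of the chains counted as within it, at -0.27 with all libraries and 0.13 without WT 1. So did the 4 chains called by DESeq2, of which 2 were shared with edgeR. The 10 chains not tested had under 20 counts in every library, except Col8a1 and Col8a2, which reached 20 and 113 in WT 1 alone.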
